A study of Homo sapiens with 4 samples.

Results

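The genes that divide breast cancers into luminal, HER2-enriched and basal-like types were examined for H3K4me3, trimethylation of lysine 4 of histone H3, in MDA-MB-231 cells. This is an established line that the labels describe as triple negative breast cancer. The set held 9 genes with 11 start sites in hg19. For ESR1 and ERBB2 an upstream and a downstream start were used, 116823 and 11838 bp apart. Every peak that overlapped the 2 kb on either side of a start site was taken, whatever its height, which gave 10 of the 60265 deposited peaks. Of these, 4 came from the 23588 peaks of the ARID1A knockout cells and 6 from the 36677 peaks of the control cells. The groups were MDA-MB-231 cells with genotype ARID1A knockout and MDA-MB-231 cells with genotype control, with 1 anti-H3K4me3 immunoprecipitate (IP) and 1 input library each. ARID1A is a subunit of SWI/SNF, an ATP-driven machine that moves and evicts nucleosomes. The labels do not say how the knockout was made or whether it is 1 clone. The knockout file carries the name K6 in its header, and 3 libraries carry cell line labels that end in other numbers.

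H3K4me3 is laid down around the start sites of active and poised genes, usually where the DNA is rich in CpG dinucleotides. In the breast, luminal cells are marked by the estrogen receptor (ESR1), by the factors that open and occupy chromatin with it (FOXA1 and GATA3), and by its target genes, among them the progesterone receptor (PGR) and the secreted peptide TFF1. FOXC1 is a marker of basal-like tumours, and ERBB2 encodes the receptor HER2. Triple-negative cells are defined by lacking the protein of both hormone receptors and amplified HER2. A promoter mark is no measure of RNA or protein, so these peaks cannot show that a gene is expressed or silent.

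Sequencing depth was 13391724 tags in the knockout IP and 17890122 in its input, against 27748061 in the control IP and 14878873 in its input. The lists differed in kind: peaks held 99.4% of the knockout IP tags and 62.1% of the control IP tags, and the median width was 300 bp in the knockout list and 2968 bp in the control list. Of the knockout peaks, 55.0% were exactly 300 bp wide, which was also the fragment length set for the peak caller, against 0 of the 36677 control peaks. With 1 library per genotype no difference had a replicate check and no test of genotype was made. Every interval is a 95% interval that covers counting error only, and those of tags and ratios take each tag as independent. Knockout peaks just upstream of XBP1, with 958 tags over 300 bp, and at ERBB2, with 643 over 300 bp, held more tags than positions on both strands. Some tags therefore shared a position, and where they did the intervals would be too narrow. The ERBB2 knockout peak and both XBP1 knockout peaks were 300 bp wide with their summits mid-peak. Their widths and edges, and values per kb of width, may follow the fragment length set and not the extent of the mark. Whether they do was not tested. In a bulk sample, fewer cells with the mark and less of the mark per cell cannot be told apart. A change made by the genotype and a difference between cultures or libraries cannot be told apart either.

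The promoters of 4 genes are shown because they stand for the patterns of called peaks. They do not stand for CpG content, since GATA3, with no peak at the start used, had promoters of 36 and 29 CpG. FOXC1 had a called peak within 2 kb in the control alone, XBP1 and FOXA1 in both genotypes, and SPDEF in neither. The lack of a called peak does not show that the mark is absent. Each is the RefSeq sequence from 250 bases before to 50 bases after the start, read 5′ to 3′ along the gene, in GRCh38.p14 coordinates, and capitals mark CpG dinucleotides. The peaks are in hg19, and the coordinates of the builds were not converted into each other.
FOXC1, chr6:1609665-1609964, plus strand: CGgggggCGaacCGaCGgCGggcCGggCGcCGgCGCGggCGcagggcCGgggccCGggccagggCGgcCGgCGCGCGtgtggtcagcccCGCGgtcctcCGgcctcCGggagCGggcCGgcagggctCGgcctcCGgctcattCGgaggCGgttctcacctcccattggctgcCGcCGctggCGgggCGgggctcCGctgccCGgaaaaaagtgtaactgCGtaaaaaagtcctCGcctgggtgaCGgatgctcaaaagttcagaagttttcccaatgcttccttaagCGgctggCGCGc
XBP1, chr22:28800520-28800819, minus strand: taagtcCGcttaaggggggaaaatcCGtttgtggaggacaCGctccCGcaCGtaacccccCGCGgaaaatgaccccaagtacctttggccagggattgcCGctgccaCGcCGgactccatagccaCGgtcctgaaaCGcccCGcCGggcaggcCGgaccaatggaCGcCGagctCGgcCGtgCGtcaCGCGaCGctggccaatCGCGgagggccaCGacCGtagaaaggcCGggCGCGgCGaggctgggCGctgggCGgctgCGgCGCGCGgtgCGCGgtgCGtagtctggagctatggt
FOXA1, chr14:37595200-37595499, minus strand: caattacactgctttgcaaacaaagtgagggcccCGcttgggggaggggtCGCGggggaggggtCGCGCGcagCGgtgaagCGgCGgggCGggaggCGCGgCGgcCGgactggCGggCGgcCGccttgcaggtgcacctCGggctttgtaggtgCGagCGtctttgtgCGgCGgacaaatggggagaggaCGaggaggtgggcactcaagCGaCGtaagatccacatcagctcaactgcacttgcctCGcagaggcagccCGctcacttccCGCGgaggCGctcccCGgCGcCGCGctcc
SPDEF, chr6:34556280-34556579, minus strand: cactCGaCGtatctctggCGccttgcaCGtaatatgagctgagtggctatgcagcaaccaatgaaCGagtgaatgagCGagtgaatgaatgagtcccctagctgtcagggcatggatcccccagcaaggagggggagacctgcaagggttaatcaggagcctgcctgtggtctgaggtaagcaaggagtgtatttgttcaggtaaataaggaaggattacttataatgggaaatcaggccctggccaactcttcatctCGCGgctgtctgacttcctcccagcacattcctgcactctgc

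In the knockout cells 3 of the 11 start sites had a peak within 2 kb, those of FOXA1 and XBP1 and the downstream start of ERBB2. In the control cells 6 had one: the same 3, the upstream start of ERBB2, the start of FOXC1 and the upstream start of ESR1. No start site had a peak in the knockout alone, and 5 had none in either list, namely those of PGR, GATA3, TFF1 and SPDEF and the downstream start of ESR1. By gene, 3 of 9 had a knockout peak and 5 of 9 a control peak at a start site used. As background, 3.46% of the positions of the effective genome lay within 2 kb of a knockout peak and 10.1% within 2 kb of a control peak. That background is all positions and not promoters, since no hg19 annotation was used here.

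**Figure D1:**
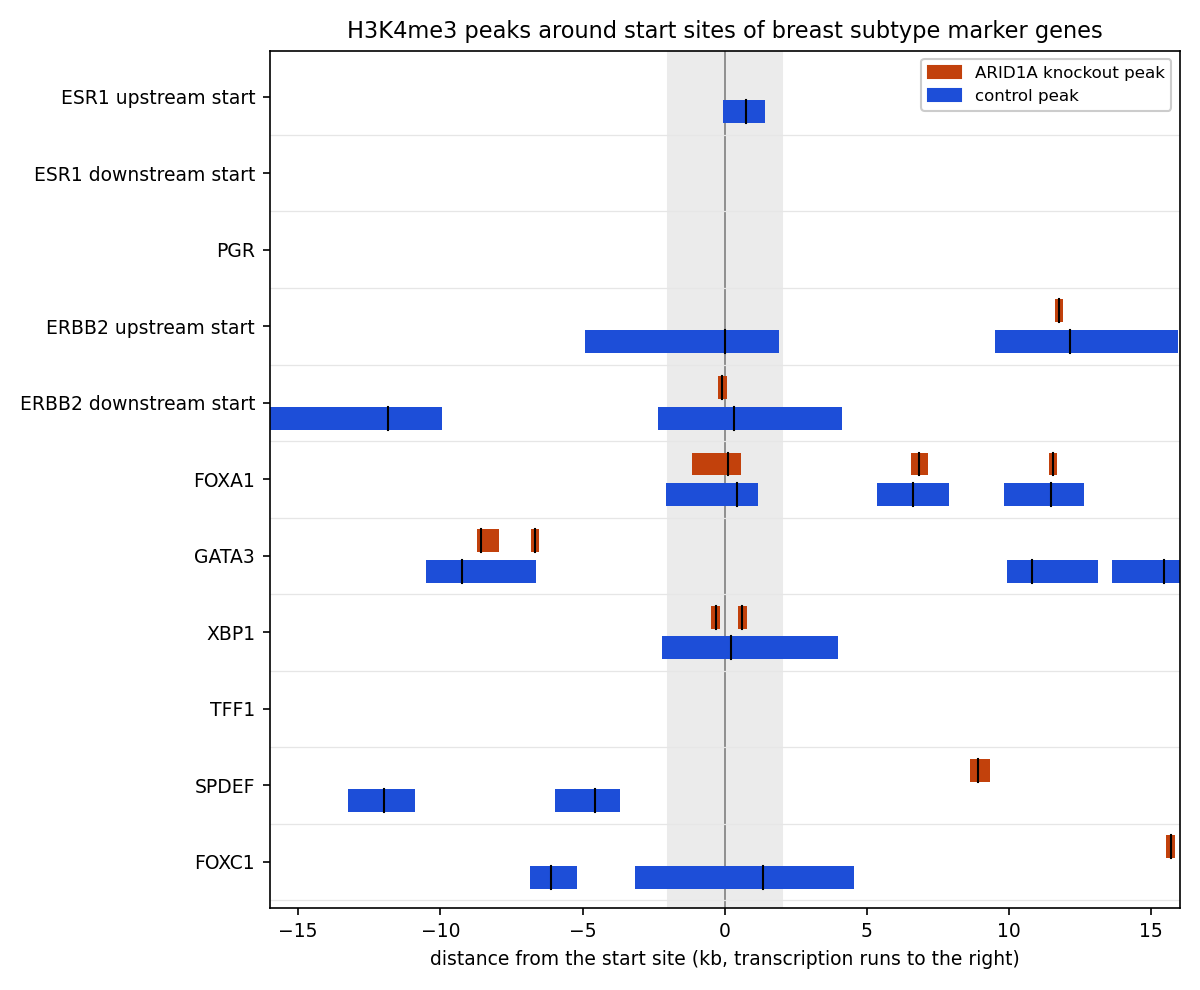
H3K4me3 peaks of ARID1A knockout (orange, upper bar) and control cells (blue, lower bar) against the distance in kb from each start site, with transcription to the right. The grey band is the 2 kb on either side and black ticks are peak summits. Knockout peaks lay in the band at 3 start sites and control peaks at 6.

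The hormone receptor genes had 1 called peak within 2 kb of the 3 start sites used, a control peak at ESR1. RefSeq lists 6 ESR1 starts over 152435 bp, and only an upstream and a downstream start were used here. At the upstream start of ESR1, which encodes estrogen receptor alpha, the knockout list had no peak within 237399 bp, against a control peak of 42 tags (exact Poisson interval 30 to 57) over 1464 bp (chr6:152011568-152013031). That control peak was weak by the peak caller's own measures, with a fold enrichment over input of 12.1 and a false discovery rate (FDR) of 22.04%, and only 4.92% of the control peaks held fewer tags. At the downstream start of ESR1 the nearest knockout peak was 354222 bp away and the nearest control peak 41947 bp away. Within 100 kb of either ESR1 start there were 0 knockout peaks, and the control peaks there held 42 to 179 tags. The start of PGR was in the emptiest neighbourhood of the 11, with 0 knockout and 0 control peaks within 100 kb and nearest peaks at 137128 bp in the knockout and 251062 bp in the control. Over the effective genome, a stretch of this size, 100 kb on either side, held 1.75 knockout and 2.72 control peaks on average, beside 0 knockout and 3 control peaks around the upstream ESR1 start. A start site with no called peak is not shown to lack the mark.

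At the ERBB2 locus a peak was called at the downstream start alone in the knockout cells and at both starts in the control cells. The knockout peak held 643 tags (594 to 695) over 300 bp (chr17:37856002-37856301), covered the downstream start itself and had its summit 80 bp upstream of it. The control domain around the same start held 1349 tags (1278 to 1423) over 6462 bp (chr17:37853883-37860344), with its summit 309 bp downstream of the start. The knockout peak thus lay inside the control domain and spanned 4.64% of its width. Its 300 bp equal the fragment length set for the peak caller, so this share may follow that setting, which was not tested. At the upstream start the knockout list had no peak within 11609 bp, against a control domain of 1100 tags (1036 to 1167) over 6834 bp whose summit was 3 bp from the start. That domain reached 4924 bp upstream of the start, and its nearest edge was 9700 bp from a knockout peak. Within 100 kb of the downstream start, all 6 knockout peaks met a control peak, against 4 of 12 control peaks that met a knockout peak. The knockout peak with the most tags in that stretch was not at ERBB2 itself but 39769 bp downstream, where 3004 tags over 696 bp ranked 120 among the 23588 knockout peaks.

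The genes of luminal transcription factors and of the luminal secretory programme fell into members with and without a called peak at the start site used. FOXA1, a pioneer factor that opens chromatin for the estrogen receptor, had more raw tags in its knockout peak than in its control domain, which the other marked start sites did not. Its knockout peak held 905 tags (847 to 966) over 1727 bp (chr14:38063763-38065489), and its control domain held 431 tags (391 to 474) over 3233 bp (chr14:38063150-38066382). The raw intervals do not overlap, and these are raw counts from IP libraries of unequal depth. The knockout peak was unusual for its list in width, at rank 83 of 23588, where 3.78% of the peaks were 1 kb or wider. It spanned 53.4% of the control domain, from 1164 bp upstream to 562 bp downstream of the start. The control domain was of middling size for its own list, with 54.2% of the control peaks narrower and 67.6% holding fewer tags. Downstream of the start, a further 2 knockout peaks of 1844 and 44 tags, 6547 and 11393 bp away, met control peaks of 157 and 442 tags. All 3 knockout peaks and all 3 control peaks within 100 kb of FOXA1 thus met a peak of the other list.

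XBP1, the transcription factor of the unfolded protein response and a gene of luminal secretory cells, had knockout peaks on both sides of its start and none over it. The upstream knockout peak held 958 tags (898 to 1021) and ended 171 bp before the start. The downstream one held 156 tags (132 to 182) and began 470 bp after it. Each was 300 bp wide, the fragment length set for the peak caller, with its summit mid-peak. These edges may therefore follow that setting, which was not tested, and a gap in the mark over the start is not shown. The control cells had 1 domain of 1259 tags (1190 to 1331) over 6186 bp (chr22:29192583-29198768), which covered the start and had its summit 202 bp downstream, between the knockout peaks. Within 100 kb of XBP1, 5 of 6 knockout peaks and 4 of 5 control peaks met the other list.

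GATA3, TFF1 and SPDEF had no peak within 2 kb in either genotype. GATA3 encodes a transcription factor that maintains luminal identity. Its nearest peaks lay upstream at almost the same distance in both lists, 6530 bp in the knockout and 6626 bp in the control. There the knockout list had peaks of 956 tags over 300 bp and of 309 tags over 794 bp, both of which met a single control peak of 581 tags over 3877 bp (chr10:8086165-8090041). Downstream of the start the control list had 7 further peaks of 62 to 355 tags within 100 kb, and the knockout list had none. RefSeq lists 6 GATA3 starts over 15124 bp in GRCh38, at 8045333, 8049854, 8051236, 8053641, 8054688 and 8060457. A single start site was used here, and it was not matched to one of these. The control peak ran from 10502 to 6626 bp upstream of the start used, with its summit at 9253 bp. Whether the upstream peaks lie at another listed start was not tested, so GATA3 is not shown to be unmarked as a gene. For SPDEF, an ETS factor of luminal and secretory epithelium, the nearest knockout peak lay 8634 bp downstream with 1679 tags over 686 bp (chr6:34514791-34515476), and the nearest control peak lay 3675 bp upstream with 59 tags and an FDR of 15.78%. These were different places, since the knockout peak was 12309 bp from any control peak. The knockout peak downstream of SPDEF ranked 1055 of 23588 by tags. For TFF1, an estrogen-induced peptide, the nearest knockout peak lay 23815 bp upstream with 666 tags, and the nearest control peak 28982 bp upstream with 58 tags.

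FOXC1, the basal marker and a forkhead transcription factor, had no knockout peak and the strongest control domain of the set. In the knockout list the nearest peaks were 15529 bp downstream, with 979 tags over 300 bp, and 18995 bp upstream, with 226 tags over 460 bp, and neither met a control peak. In the control cells the domain held 1745 tags (1664 to 1829) over 7682 bp (chr6:1607533-1615214), ranked 1759 of 36677 by tags and had a fold enrichment above that of 99.1% of the control peaks. It ran from 3148 bp upstream to 4533 bp downstream of the start, and the nearest knockout peak was 10996 bp from its edge. The knockout list gives no tag count where no peak was called, so the size of the difference at FOXC1 could not be given. No peak of either list within 100 kb of FOXC1 met a peak of the other.

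**Figure D2:**
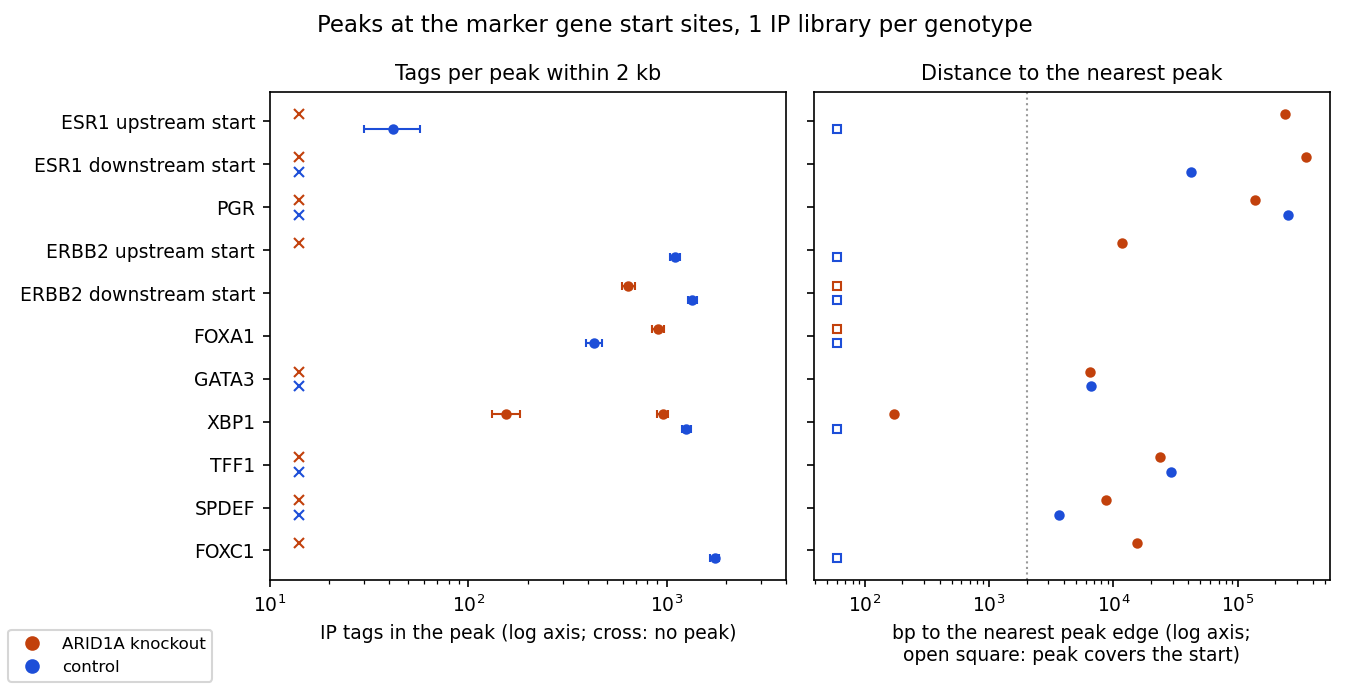
Left, IP tags (log axis, exact Poisson 95% intervals) of each peak within 2 kb of a start site, with crosses where a list had none; right, distance in bp (log axis) to the nearest peak, with open squares where a peak covered the start and a dotted line at 2 kb. ARID1A knockout is orange and control blue. FOXC1 and the upstream starts of ERBB2 and ESR1 have a knockout cross and a control value.

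Ordered by tags, the knockout peaks were the upstream XBP1 peak, FOXA1, ERBB2 and the downstream XBP1 peak. The intervals of the first pair overlapped (898 to 1021 and 847 to 966 tags), and the other neighbours did not. In the control the order was FOXC1, the downstream ERBB2 start, XBP1, the upstream ERBB2 start, FOXA1 and the upstream ESR1 start. There the intervals of the downstream ERBB2 start (1278 to 1423) and XBP1 (1190 to 1331) overlapped, and the others did not. Where tags share a position these intervals would be too narrow, so intervals that do not overlap do not settle the order. These orders cannot be set against each other, since XBP1 had 2 knockout peaks and 1 control domain, and FOXC1 and the upstream ERBB2 start had no knockout peak to rank. Tags per kb of peak width ran from 520 to 3190 in the knockout members and from 28.7 to 227 in the control members, beside median peak widths of 300 bp over the knockout list and 2968 bp over the control list. The FDR was 0.2% for each of the 4 knockout peaks and 0.07 to 0.09% for the control peaks other than that of ESR1.

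**Figure D3:**
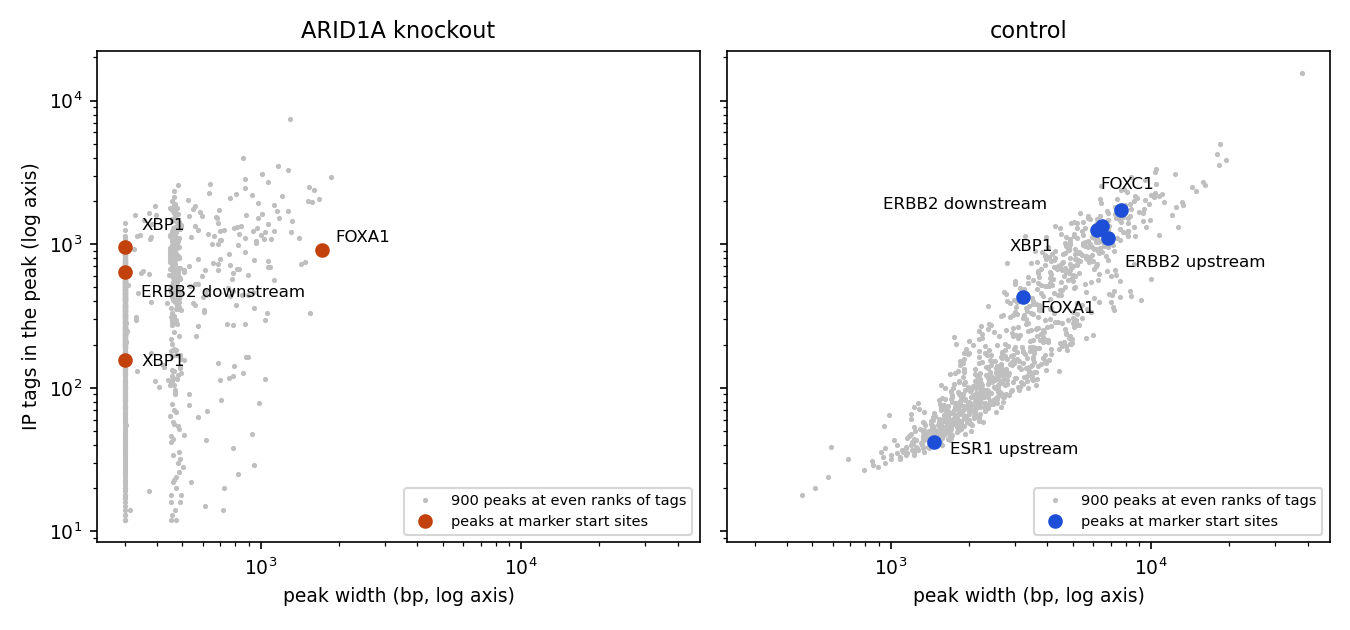
Peak width in bp against IP tags (both log axes) for ARID1A knockout (left) and control (right), with 900 peaks of each list at even ranks of tags in grey and the marker gene peaks in colour. The FOXA1 knockout peak stands out in width at 1727 bp, while the other knockout members are 300 bp wide.

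The presence of knockout peaks in the control domains was set against all control domains. Knockout peaks were found in 3 of the 6 control domains at the marker genes, where 28.4% of all control peaks held one. All 4 knockout member peaks met a control peak, where 60.3% of all knockout peaks did. The share over the whole list depended strongly on the strength of the domain, so the control peaks were ranked by tags and divided into 10 equal groups. The FOXC1 domain was in the strongest group, in which 84.2% (exact Clopper-Pearson interval 83.0 to 85.4%) held a knockout peak and 15.8% did not. The downstream ERBB2 domain was in the same group and held one. The upstream ERBB2 domain and that of XBP1 were in the ninth group, in which 70.0% (68.4 to 71.4%) held one, and of these XBP1 did. FOXA1 was in the seventh group, in which 29.5% (28.0 to 31.0%) held one, and the ESR1 peak in the first, in which 2.45% (1.98 to 3.01%) did.

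For domains with a knockout peak, the knockout tags of all peaks in the domain were divided by the control tags of the domain. The summed regions were called separately and differed in width, at 1727 bp of knockout peak and 3233 bp of control domain for FOXA1, 600 bp of knockout peaks and 6186 bp of control domain for XBP1, and 300 bp of knockout peak and 6462 bp of control domain for ERBB2. The ratio is therefore a description of the lists and not a fold change over 1 stretch of DNA. The log2 ratio was centred on its median over all 10427 such domains, because depth and enrichment differed between the libraries. The centred log2 ratio was 1.40 (1.24 to 1.57) at FOXA1, 0.16 (0.04 to 0.27) at XBP1 and -0.74 (-0.87 to -0.60) at the downstream start of ERBB2. On this scale none of the 3 reached 4-fold in either direction, where 10.2% of the domains were higher in the knockout by 4-fold or more and 12.8% lower. FOXA1 stood above 82.3% of the domains and ERBB2 above 31.9%, inside a spread with an SD of 1.79. The median ratio also fell as the control domains became stronger, at 0.57 in the tag group of FOXA1, -0.29 in that of XBP1 and -0.56 in that of ERBB2. The directions depended on the scale. Per kb of peak width the centred ratio was -0.96 at FOXA1, where the knockout peak was broad, and 0.42 at ERBB2, while XBP1 stayed positive at 0.25. Divided by library totals without centring, the log2 ratios were 2.12, 0.87 and -0.02 for FOXA1, XBP1 and ERBB2 in that order, and FOXA1 then passed 4-fold. These values differ from the centred ones by a constant and add no separate support.

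**Figure D4:**
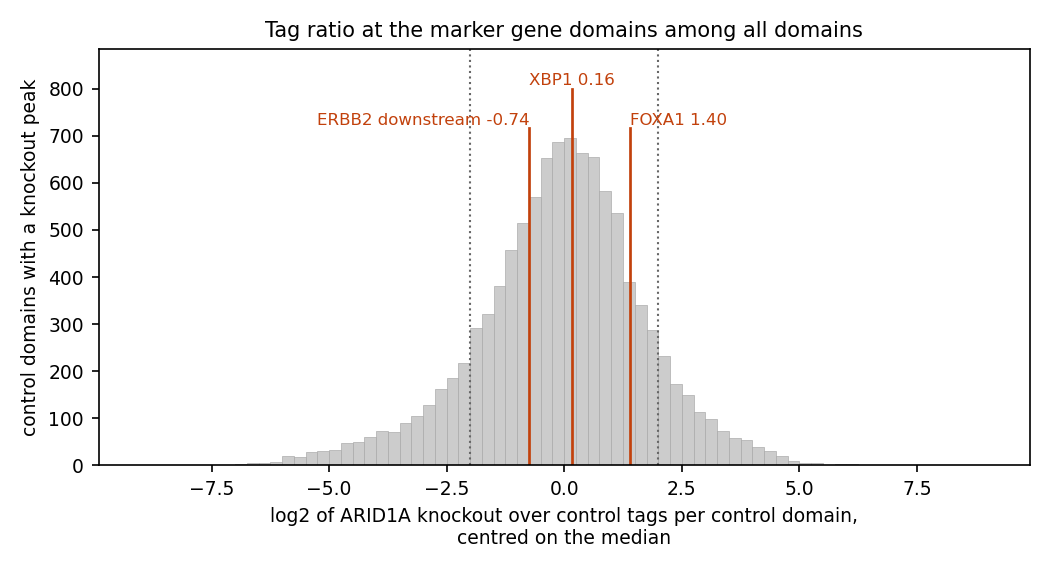
Number of control domains by centred log2 ratio of ARID1A knockout to control tags, for the 10427 domains with a knockout peak, with orange lines at the marker gene domains and dotted lines at 4-fold. FOXA1 lies at 1.40, XBP1 at 0.16 and ERBB2 at -0.74, all within the dotted lines.

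The promoter sequences differed in a feature that the choice of genes did not use. RefSeq gave 21 promoters for 8 of the 9 genes, and TFF1 was not matched. The promoters shown above for FOXC1, XBP1 and FOXA1 held 40, 40 and 34 CpG dinucleotides in 300 bases, and that of SPDEF held 8, where the median of the 35114 promoters in the table was 14. Corrected for base composition, the ratio of observed to expected CpG was 1.02, 1.13 and 0.97 for these 3 and 0.40 for SPDEF, against a median of 0.58. The other XBP1 promoter in the table held 23 CpG, with a ratio of 0.65. The ERBB2 promoter in the table had a ratio of 0.87, and it was not determined to which of the 2 start sites it belongs. The 3 PGR promoters had ratios of 0.48 to 0.54. The 6 of ESR1 ran from 0.22 to 0.67 and the 6 of GATA3 from 0.26 to 0.87. By a common definition of CpG-rich promoters (a ratio of at least 0.6 and at least 50% GC), 9 of the 21 qualified, where 46.9% of all promoters did. All 5 promoters of FOXA1, FOXC1, XBP1 and ERBB2 were among these 9, with 3 of GATA3 and 1 of ESR1. GATA3 thus had 3 CpG-rich promoters among its 6 and no peak at the start site used. Whether its upstream peaks lie at another of the 6 starts was not tested.

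**Figure D5:**
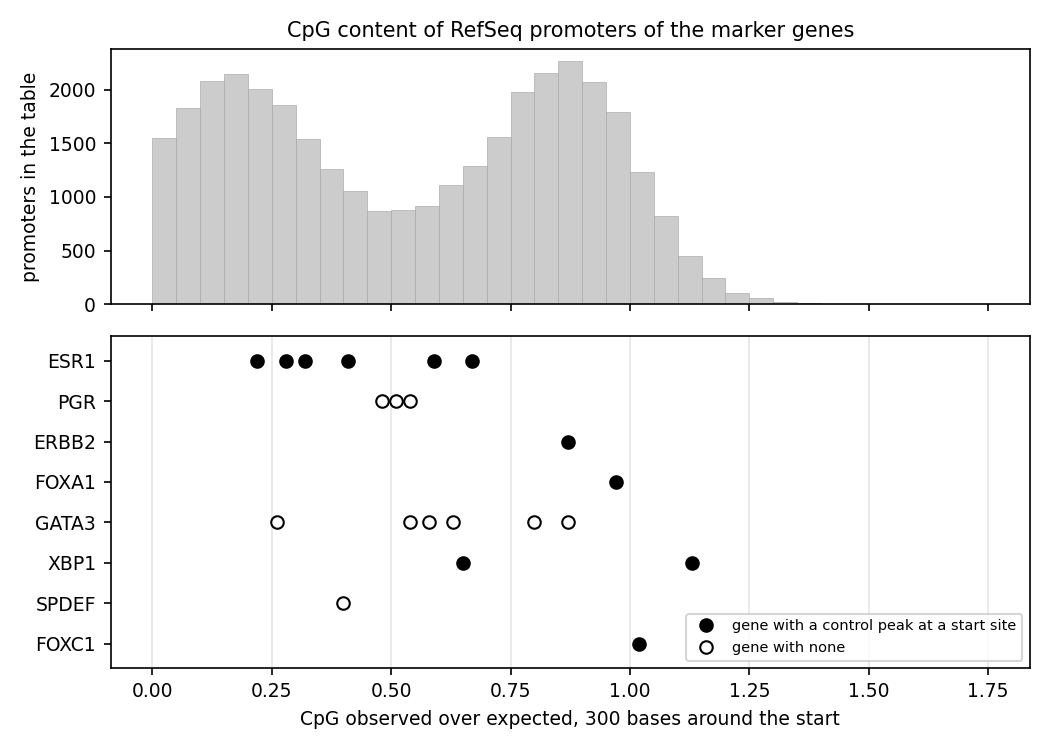
Ratio of observed to expected CpG in 300 bases around the start, for 35114 RefSeq promoters (top, number of promoters) and for the promoters of each marker gene (bottom, 1 point per promoter). Filled points are genes with a control peak at a start site used, open points genes with none. The fill is set by gene and not by promoter, and ESR1 is filled through 1 control peak of 42 tags with an FDR of 22.04%. FOXA1, FOXC1 and 1 XBP1 promoter lie at 0.97 or above.

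Short motifs were searched on both strands of the same 300 bases. The letters TATAAA, which a TATA box can have, were found in 1 of the 21 promoters, where 11.5% of all promoters held them. That match was in a GATA3 promoter, on the strand opposite to the gene and at -205 from the start, and is not called a TATA box here. The letters CCAAT, which a CCAAT box has, were found in 11, where 34.6% of all promoters held them. Among the 11 were those shown for XBP1, FOXC1 and SPDEF, and no match is called a CCAAT box here. The letters GGTCA, those of the half-site of the estrogen response element, were found in 9, where 37.4% held them. These 9 belong to ESR1, FOXC1, GATA3, PGR and XBP1. The PGR promoters among them, with starts at 101129063 and 101129077, overlap, and their match is the same site counted for each. The full palindromic estrogen response element was found in none of the 21, where 0.057% of all promoters held it. These are matches of letters in a short window and say nothing of the binding of any factor.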

How the data were processed

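H3K4me3 chromatin immunoprecipitation and sequencing was done on 1 IP and 1 input library per genotype. Chromatin was cut with micrococcal nuclease, per the labels' protocols. The inputs have IgG in the antibody field of the labels. Bowtie2 (2.2.4), MACS (1.4.3) and hg19 are the tools and build in the submitters' processing notes. Per the file headers, MACS compared each IP with its own input at a p cutoff of 0.0001 and a fragment length of 300 bp, and scaled the larger library to the smaller. Fold enrichments of the lists therefore cannot be set against each other. The sources used here do not say whether duplicate tags were removed. In the knockout list the upstream XBP1 peak held 958 tags over 300 bp, more tags than positions on both strands. Tags that share a position were therefore not all removed there.

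The deposited tags are counts of IP tags per peak, in whole numbers and not normalized. The deposited fold enrichment is a ratio of IP tags to a background from the input, and the deposited FDR is in percent. The deposited score is the −log10 of each peak's p-value from MACS, times 10. Its column name was lost, and it was used only as a filter. Deposited positions and widths are in bp, 1-based.

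Start sites came with the choice of genes, in hg19. The members and settings were chosen with earlier results of these data known. All members are named, which was the rule for named genes. Overlap meant at least 1 bp. Tag counts have exact Poisson intervals, shares exact Clopper-Pearson intervals, and ratios an exact binomial interval, with a pseudocount of 1 for the ratio itself. No other luminal or basal genes were examined, because no hg19 annotation was used here. The ratio and overlap steps were tested on simulated data. Software was scipy 1.17.1, numpy 2.4.6, matplotlib 3.10.9 and pandas 2.3.3 under Python 3.11.15.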

Additional observations from a re-analysis of the deposited data

How the results depend on the processing

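Of 37 values recomputed under other settings, 27 stayed within 1.5 times the reported count or inside the counting interval of the ratio, and 10 moved. These are not independent checks. The counts with both lists equalled the knockout counts in every setting. Lists of equal length keep the whole knockout list, which is the shorter, so its count could not move there. The 3 start sites with a knockout peak, and with peaks of both lists, became 1 (FOXA1) with only knockout peaks wider than 300 bp, which also left 1 of the 6 control domains with a knockout peak. With a window of 10 kb, added after the data were seen, the knockout count and the count with both became 5, through GATA3 and SPDEF. The control count of 6 became 5 with an FDR of 1% or less, a MACS p of 1e-10 or less or lists of equal length, each time without ESR1, and rose to 7 with a window of 5 kb, through SPDEF, and to 8 with 10 kb, through GATA3 and SPDEF. Divided by library totals, uncentred, the log2 ratios were 2.12 at FOXA1, 0.87 at XBP1 and -0.02 at ERBB2, and per kb of peak width -0.96 at FOXA1 and 0.42 at ERBB2. These scalings change the ratio by construction. No paired analysis was possible because each genotype had 1 IP library. The knockout depth limits what can be said of a start site with no knockout peak: a mark too weak to be called is not shown to be absent.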
